A study of Mus musculus with 272 samples.

Results

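The zygote series consisted of 30 libraries of 272 in the study: 10 fractions of a sucrose gradient for each of 3 gradients, labelled A, B and C. They were taken by their labels, with no measured value used in the choice. Each gradient was loaded with the lysate of about 100 mouse zygotes, the fertilised egg before its first division. The study covered 8 stages from the GV oocyte to the blastocyst. In all of them the cells were lysed with cycloheximide, which halts elongating ribosomes on the mRNA, and spun through a linear sucrose gradient. RNA of each fraction was amplified with a Smart-seq2 kit that captures polyadenylated RNA and sequenced. A further 4 libraries of 20 whole zygotes each served as the transcriptome. The MII oocyte (the unfertilised egg) and the 2-cell embryo, with 30 fraction libraries each, were used for comparison. The labels gave no strain, hour of collection or culture, and did not say whether the 3 gradients came from separate collections. The p-values therefore rest on the spread between these gradients, pooled in part across genes.

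A sucrose gradient separates RNA by the mass of the particle it travels in. Free RNA and small ribonucleoprotein particles stay near the top, single ribosomes sediment further, and mRNAs that carry several ribosomes sediment deepest. The zygote does most of its protein synthesis from mRNA stored by the growing oocyte, and many of these mRNAs are kept silent with short poly(A) tails and recruited to ribosomes when meiosis resumes or after fertilisation. Cytoplasmic polyadenylation through short U-rich elements near the 3′ end of the mRNA, bound by the protein CPEB1, is one known route of recruitment. Here fractions 1 to 5 are called the light side and fractions 6 to 10 the heavy side. The labels number the fractions and do not say which end is the top.

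The zygote fraction libraries held 4.32 to 29.4 M reads each, with the shallowest in fraction 1, and the transcriptomes held 16.7 to 20.6 M reads. The number of genes at 1 CPM (reads scaled to the total of the library) or more was 8909 to 10830 on the light side and 6749 to 9688 on the heavy side. Correlation of the same fraction between gradients (Pearson, across genes) was 0.831 to 0.953 on the light side and 0.722 to 0.870 on the heavy side. Among genes at 100 CPM or more in both other gradients, 0 of 21658 values were 0 on the light side and 28 of 21390 (0.131%) on the heavy side. In gradient A, fractions 7 and 8 held 18S rRNA and gene numbers in the opposite order from gradient B. Both lie on the heavy side, and the total number of calls is given without them. The 10 markers chosen for oocyte and zygote, among them Zp3, Gdf9 and Nlrp5, were all measurable, with a summed level of 17072 to 17669 CPM on the light side and 16606 to 17588 on the heavy side. The 6 markers of the 2-cell embryo were not measurable in the fractions (sums of 0.198 to 1.61 CPM on the light side and 0.221 to 2.37 on the heavy side). Of 9 blastocyst markers 8 were in the table and 3 measurable, with sums of 20.2 to 24.3 CPM on the light side and 33.7 to 53.3 on the heavy side. Of 15 cumulus and granulosa markers 3 were in the table and 1 measurable (5.72 to 7.12 CPM light, 13.6 to 41.7 heavy). Of 9 sperm markers 4 were in the table and 1 measurable (44.9 to 59.4 CPM light, 15.6 to 24.1 heavy). Of the 2 blood markers in the table, Hba-a2 was at 0 in all 30 libraries. In the whole-zygote transcriptome the sums were 14.2 CPM for 2-cell, 108 CPM for blastocyst, 54.5 CPM for cumulus and granulosa and 8.67 CPM for sperm markers. The part of RNA from other cells in the results was not tested.

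18S ribosomal RNA, the RNA of the small ribosomal subunit, was followed along the gradient. It is not polyadenylated as mRNA is, so its reads are those that escaped the capture. Its CPM is relative to the captured RNA of each library and does not by itself show where ribosomes lay. Averaged over the 3 gradients, Rn18s stood at 15160 CPM in fraction 1, at 2982 CPM in fraction 2 and at 21492 CPM in fraction 10. The side means were 9628, 2935 and 5240 CPM on the light side of gradients A, B and C, against 13207, 11216 and 17421 CPM on the heavy side. The 3 heavy values all lay above the 3 light ones. The difference was 1.37 ± 0.29 on the log2 scale (SE, n = 3 gradients, limma adjusted p = 0.0116). Here and below the SE is the moderated one of limma. It draws each gene's spread between gradients toward that of genes of similar level. It can therefore be wider or narrower than the spread of the 3 differences themselves. Rn18s was no longer called without the filter on low values or without the trend in limma.

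The question of the comparison was which transcripts lie in the high-numbered fractions of the zygote gradient and which in the low-numbered ones. For each gradient the mean CPM of fractions 6 to 10 was compared with that of fractions 1 to 5, as log2(CPM + 1), with the gradient as a block. A gene was called at a limma adjusted p under 0.05 (Benjamini-Hochberg over all genes tested) and a difference of at least 1. Of 11323 genes tested, 2098 (18.5%) were called. On the heavy side 1507 genes (13.3%) were higher, and on the light side 591 (5.22%). All 1507 and all 591 had the same sign in the 3 gradients, which follows largely from the call itself. Of all 11323 genes tested, 3072 were above 0 and 2992 below 0 in all 3 gradients. For 4370 genes (38.6%) the 3 heavy and the 3 light means did not overlap. CPM is scaled within each library, so a difference is one of relative abundance, and more RNA in a fraction cannot be told apart from less of the other RNAs in it. The share of calls on the heavy side was 71.8%, against 57.6% after quantile normalization, 50.3% with the mean of log2 values per side and 53.4% with the median CPM per side. These 3 settings moved the median of all genes from -0.05 to -0.16, -0.28 and -0.22. Without fractions 7 and 8 of gradient A, 2243 genes were called, 67.5% of them heavy. edgeR's quasi-likelihood test on whole reads, which 100% of the CPM values gave within 0.05 reads, called 1583.

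Genes called heavy had their highest mean level mostly in fractions 9 and 10. Of the 1507, 730 (48.4%) had their highest level in fraction 9 and 459 (30.5%) in fraction 10. Genes called light peaked in fractions 1, 2 and 3, with 209, 173 and 121 of the 591. Genes called in neither direction peaked most often in fraction 1 (21.4%) and fraction 4 (14.2%). Single-fraction peaks differed between gradients: of all genes tested, 142 of the 1393 with their peak in fraction 9 and 48 of the 1093 with it in fraction 10 had that same peak in all 3. Only 16 of the 30 libraries correlated best with their own fraction of the other gradients. The shares follow from the comparison itself and describe where within each side the levels lay.

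The 12 genes with the largest heavy differences ran from 4.31 to 5.51. The 3 heavy and 3 light means of each did not overlap. This held for 2049 of all 2098 called genes and follows largely from the call. D6Ertd527e, a gene of unassigned function, stood at 65.14, 19.14 and 42.09 CPM on the light side of gradients A, B and C, and at 1585, 1499 and 2297 CPM on the heavy side. Its difference was 5.51 ± 0.30 (SE; limma adjusted p = 0.000104). Ddx3x, an RNA helicase that takes part in translation initiation, stood at 7.88, 1.70 and 6.97 CPM on the light side and at 256, 172 and 278 CPM on the heavy side (5.33 ± 0.35). In fraction 3 its mean was 0.8 CPM and in fraction 9 451 CPM. Casp8ap2, also known as FLASH, acts in histone mRNA processing and stood at 1.35, 1.37 and 3.81 CPM on the light side and at 81.4, 97.4 and 143 CPM on the heavy side (5.14 ± 0.41). The next were Obox5, an oocyte homeobox gene (4.97), Mphosph6, a cofactor of the nuclear exosome (4.67), and Copb1, a coatomer subunit of vesicle traffic (4.67). Cenpf, a kinetochore protein (4.60), Atrx, a chromatin remodeler (4.55), and Gnai3, an inhibitory G protein subunit (4.45), followed. Hpf1, which directs ADP-ribosylation to serine (4.41), Kif20a, a mitotic kinesin (4.37), and Tiparp, a mono-ADP-ribosyltransferase (4.31), completed the group. Of these 12 only Kif20a was not called under every alternative run: it was not called when all 8 stages shared 1 fit.

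The 12 genes with the largest light differences ran from -2.68 to -3.81. 9130230L23Rik, of unassigned function, stood at 64.8, 178 and 180 CPM on the light side and at 3.76, 6.75 and 20.0 CPM on the heavy side (-3.81 ± 0.37; limma adjusted p = 0.0004). Nearly all of it was in fraction 1, with a mean of 692.6 CPM against 8.2 CPM in fraction 2, and its difference was 1.18 in the other direction when fraction 1 was left out. Eif3g, a subunit of the initiation factor eIF3, stood at 45.3, 45.3 and 54.8 CPM on the light side and at 5.72, 6.09 and 2.66 CPM on the heavy side (-3.14 ± 0.46). It was called under every alternative run. Ralgds, an exchange factor for Ral GTPases, stood at 163, 151 and 123 CPM against 34.5, 10.7 and 23.5 CPM (-2.75 ± 0.35) and was highest in fraction 3. The others were Arid5a, an AT-rich DNA and RNA binding protein (-3.47), Babam1, of the BRCA1-A complex (-3.20), Cdh15, a cadherin (-2.91), Adcy1, an adenylate cyclase (-2.84), Mfap4, an extracellular matrix protein (-2.82), Wnk4, a kinase (-2.80), Rps12 (-2.79), Ndufa3 (-2.70) and Pglyrp2, a peptidoglycan amidase (-2.68). Each of these 12 but Eif3g lost its call in at least 1 alternative run. With edgeR on whole reads Arid5a, Babam1, Cdh15, Adcy1, Mfap4, Wnk4 and Ndufa3 were not called. Babam1 was not called without gradient C, Cdh15 without gradient B, and Mfap4 without gradient A or without gradient C.

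The 2 groups also differed in the whole-zygote transcriptome. Of the 12 largest light genes 6 were under 1 CPM there, and the highest of them stood at 11.1 CPM, while the 12 largest heavy genes ranged from 50.04 to 12583 CPM. Among all genes called light 14.6% were under 1 CPM in the transcriptome, against 15.5% of all genes tested. Cdh15 stood at 0.0123 CPM in the transcriptome, against 25.3, 24.3 and 27.6 CPM on the light side of gradients A, B and C. Over all called genes the median transcriptome level was 112 CPM for heavy genes and 6.25 CPM for light genes. It was 7.35 CPM for genes not called and 10.7 CPM for all genes tested. The transcriptome value was above the mean of the 30 fractions for 80.4% of heavy genes and for 3.05% of light genes. This share was 33.6% for genes not called and 38.2% for all genes tested. Split into quintiles of transcriptome level, the share called heavy was 0.397% in the lowest quintile and 44.8% in the highest, and the share called light 5.39% and 2.25%. The median difference went from -0.45 in the lowest quintile to 1.06 in the highest. The part of transcript abundance in the calls was not tested.

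**Figure D1:**
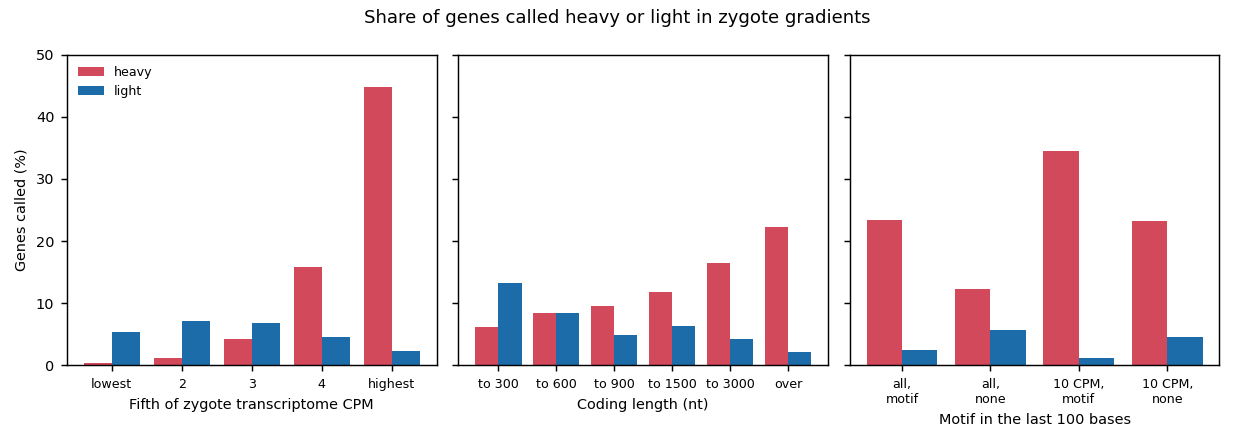
Bars give the percent of tested genes called heavy (red) or light (blue) in the zygote gradients, by quintile of whole-zygote transcriptome CPM (left), by coding length in nucleotides (middle) and by presence of a U-rich motif in the last 100 bases of the transcript, for all genes and for those at 10 CPM or more in the transcriptome (right). The heavy share reaches 44.8% in the highest quintile and 22.3% in the longest coding sequences.

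The maturation-activated list held 20 genes, put together around recruitment to ribosomes during oocyte maturation. Most are regulators of the meiotic cell cycle or of mRNA decay. Whether each member is recruited during maturation was not tested. Of the 20, all tested, 13 were called heavy and 0 light, with a median difference of 1.70 against -0.05 over all genes tested. Of them 19 were in the highest quintile of transcriptome level, where 44.8% of all genes were heavy, and 13 of these 19 were called. Along the gradient the median of the list, relative to each gene's mean over the 10 fractions, was -1.24 in fraction 1, -1.61 in fraction 2, -0.16 in fraction 5 and 1.75 in fraction 9. The list was chosen with earlier results of these data known, so its count is a description. Counts of the other lists are likewise to be read against 13.3% heavy and 5.22% light over all genes, and against 44.8% heavy in the highest quintile.

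Among its cell-cycle members, Cdc20, the activator of the anaphase-promoting complex, had the largest difference. It stood at 18.8, 10.9 and 25.6 CPM on the light side of gradients A, B and C and at 385, 295 and 271 CPM on the heavy side (4.09 ± 0.30, SE; limma adjusted p = 0.000178). Its mean went from 33.2 CPM in fraction 5 to 90.0 CPM in fraction 6 and 772.5 CPM in fraction 10. Orc6, a subunit of the origin recognition complex, stood at 17.6, 8.76 and 12.2 CPM against 143, 114 and 254 CPM (3.59 ± 0.33). Bub1b, the spindle checkpoint kinase BubR1, stood at 38.2, 21.5 and 18.2 CPM against 333, 224 and 156 CPM (3.15 ± 0.25). Tpx2, a spindle assembly factor, had a difference of 2.53 ± 0.28. Cyclin B1, the regulatory subunit of M-phase promoting factor, is encoded by Ccnb1, which stood at 594, 493 and 406 CPM on the light side and at 1552, 1180 and 1706 CPM on the heavy side (1.57 ± 0.21). Its means were 985.7, 650.7, 955.8 and 627.0 CPM in fractions 4, 5, 6 and 7, and 2388 CPM in fraction 10. Ccnb2 had a difference of 1.79 ± 0.35. Wee2, the oocyte kinase that inhibits Cdk1 and is needed for exit from meiosis, had one of 1.63 ± 0.22. With the median CPM per side Ccnb1, Ccnb2 and Bub1b were not called, and Bub1b, Cnot6l, Dcp1a and Ythdf2 were not called when all 8 stages shared 1 fit.

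Of the members that act in mRNA decay, Btg4, Cnot7, Cnot6l and Dcp1a were called heavy. Btg4, the adaptor that brings the CCR4-NOT deadenylase to maternal mRNAs, stood at 642, 458 and 406 CPM on the light side and at 2174, 1985 and 3021 CPM on the heavy side (2.25 ± 0.24). The deadenylase subunits Cnot7 and Cnot6l had differences of 3.82 ± 0.33 and 2.11 ± 0.27. The decapping activator Dcp1a had one of 1.76 ± 0.22. The decapping enzyme Dcp2 was not called, at 116, 137 and 129 CPM against 171, 169 and 132 CPM (0.29 ± 0.22). Slbp, which binds the stem-loop of histone mRNAs, stood at 181, 151 and 129 CPM against 1327, 1406 and 2042 CPM (3.35 ± 0.24). Ythdf2, a reader of N6-methyladenosine, was called at 1.10 ± 0.33 and lost its call in 11 of 22 alternatives. Among these were the fits without gradient A, without gradient C, without the replicate block, with all 8 stages and with edgeR, and its difference was 0.30 with the median CPM per side.

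A further 6 members of the list were not called. Cpeb1 and Dazl, RNA-binding regulators of polyadenylation and translation, passed the p but not the size threshold, with 0.93 ± 0.21 (limma adjusted p = 0.0155) and 0.92 ± 0.21 (limma adjusted p = 0.0156). Both were called without gradient A. Tex19.1 stood at 0.88 and Ccne2, cyclin E2, at 0.33. Mos, the kinase that holds the egg in metaphase II, stood at 483, 357 and 387 CPM on the light side and at 321, 409 and 302 CPM on the heavy side. Its sides overlapped (-0.25 ± 0.21; limma adjusted p = 0.454). Plat, tissue plasminogen activator, stood at 532, 574 and 436 CPM against 492, 418 and 256 CPM. Its highest mean was 720.8 CPM in fraction 3 (-0.45 ± 0.20; limma adjusted p = 0.156).

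**Figure D2:**
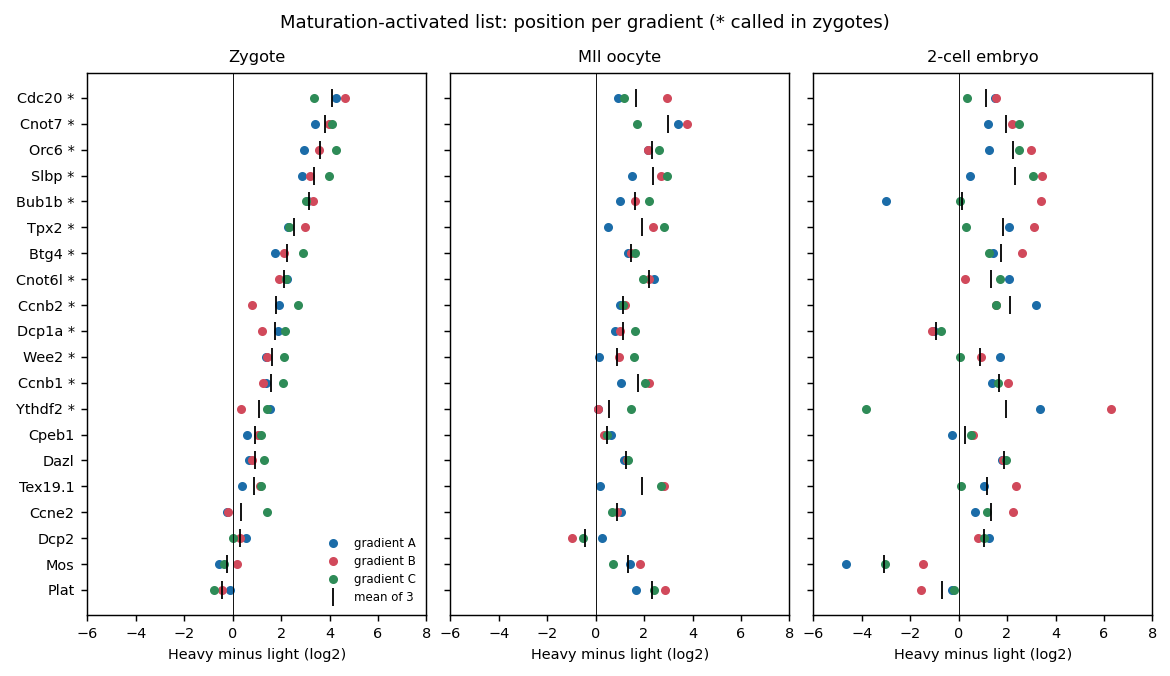
Each row is a gene of the maturation-activated list and each point the heavy minus light difference of 1 gradient on the log2(CPM + 1) scale, with the mean of 3 as a bar, in zygotes, MII oocytes and 2-cell embryos. Asterisks mark the 13 genes called in zygotes, where Mos and Plat lie lowest.

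Heavy genes more often held a U-rich motif at the 3′ end. The letters TTTTAT or TTTTAAT, forms of the cytoplasmic polyadenylation element written as DNA, were searched on the transcript strand in the last 100 bases of 1 representative transcript per gene (GENCODE M21, with a 3′ untranslated region of at least 100 bases). The annotated end need not be the end used in the zygote. The motif was found in 31.8% of heavy genes (451 of 1418), in 9.38% of light genes (47 of 501) and in 19.6% of all genes tested (1928 of 9820). Among all coding genes of the annotation the share was 17.9%. The median difference was 0.33 for the 1928 genes with the motif and -0.08 for the 7892 without. Among genes at 10 CPM or more in the transcriptome, 34.5% of those with the motif and 23.2% of those without were heavy. At coding lengths up to 900 nucleotides these shares were 20.9% and 7.08%, and above 1500 nucleotides 25.6% and 16.7%. A match is a description of letters and not of a functional site.

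Windows of 30 bases are given for the heavy genes of the 12 largest and of the maturation-activated list that held the motif, together with Plat and Arid5a, which were not heavy and held it too. The motif nearest the transcript end is in capitals.
D6Ertd527e: tcctgtacatttTTTTATtattgtttgttt
Ddx3x: tggTTTTATtaaaataaaaagttgaactgc
Casp8ap2: agccaaggttttTTTTATctatattaaata
Copb1: acatttttgttaTTTTATaaataaattact
Hpf1: aaataatgggaaTTTTATtaaaaactttat
Orc6: tggttttttaaaTTTTATttcactaaatgt
Bub1b: tttcactgtgtaTTTTATaataaaatagtt
Wee2: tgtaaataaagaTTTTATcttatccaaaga
Btg4: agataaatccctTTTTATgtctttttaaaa
Cnot7: tcttaaggtacaTTTTATatcaataaaaat
Dcp1a: gcaaatatatttTTTTAATaaaatttcaaa
Plat: gtatatttataTTTTAATctattttagttt
Arid5a: aggcagttgggcTTTTATgtgaaataaaga
In Wee2, Cnot7, Hpf1, Bub1b and Copb1 the motif ended 12, 14, 19, 21 and 22 bases before the annotated transcript end, and in Ddx3x 91 bases before it. Orc6, Bub1b, Wee2 and Dcp1a held 2 copies in the last 100 bases. Of 18 list members with a window in the sequence search, which left out Cdc20 and Dcp2, 7 held the motif, and Ccnb1, Slbp, Tpx2 and Mos did not hold these letters in this window.

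The next list joined genes of the subcortical complex, which lies at the egg cortex and is needed for early cleavage, with other maternal Nlrp genes. Of 16 tested, 8 were called heavy and 0 light, with a median difference of 1.48. Of them 14 were in the highest quintile of transcriptome level, 8 of these called. Nlrp14 stood at 199, 67.3 and 136 CPM on the light side and at 1042, 690 and 1168 CPM on the heavy side (2.94 ± 0.23; limma adjusted p = 0.000207). Nlrp4b had a difference of 3.57 ± 0.31, Nlrp4e one of 2.17 ± 0.41 and Nlrp9a one of 2.09 ± 0.24. The Nlrp4 and Nlrp9 copies are near-identical neighbours, and reads could be shared among them. The 2 most abundant members were not called. Zbed3 stood at 18912, 24399 and 22287 CPM against 16789, 20879 and 19878 CPM (-0.19 ± 0.20), and Ooep at 6922, 8091 and 6338 CPM against 9379, 10204 and 5267 CPM (0.17 ± 0.22). Levels of Zbed3 were highest in fraction 2, at a mean of 30177 CPM, and again high in fraction 9, at 25066 CPM.

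Genes of the growing oocyte and of the egg coat were not on one side. Of 18 tested, 4 were called heavy and 3 light, with a median of -0.15. Of the 13 in the highest quintile 4 were heavy. H1f8, the oocyte linker histone, stood at 758, 639 and 574 CPM against 2339, 3102 and 4410 CPM (2.28 ± 0.25). Oosp3, an oocyte-secreted protein, had a difference of 2.40 ± 0.24 and Kit, the receptor of stem cell factor, one of 1.70 ± 0.31. Nobox, a transcription factor of oocyte growth, stood at 1094, 1431 and 1281 CPM against 445, 551 and 231 CPM (-1.71 ± 0.25). Gdf9, a growth factor for the follicle, stood at 3333, 3169 and 3323 CPM against 3569, 4151 and 2532 CPM and its sides overlapped (0.03 ± 0.21). Izumo1r, the egg receptor for sperm, stood at 4197, 3207 and 4460 CPM against 2448, 2039 and 2707 CPM (-0.72 ± 0.18; limma adjusted p = 0.0226), below the size threshold.

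**Figure D3:**
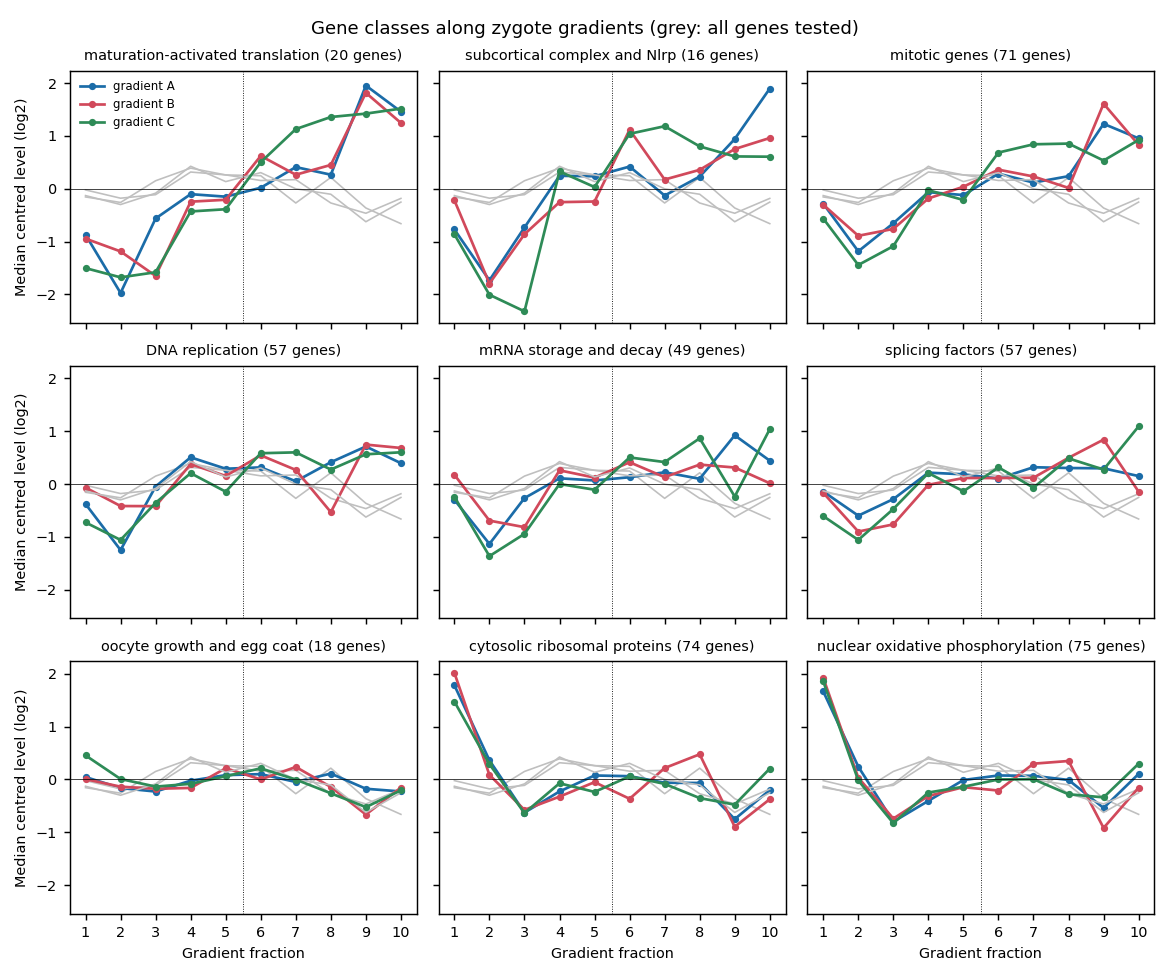
Lines give, for each gradient, the median over the genes of a list of the log2(CPM + 1) level in each fraction minus the gene's mean over 10 fractions, with all genes tested in grey and the border of the sides dotted. The maturation-activated list is low in fractions 1 to 3 and high in fractions 9 and 10, and ribosomal protein and oxidative phosphorylation genes are highest in fraction 1.

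Of 71 genes of mitotic entry, spindle and checkpoint, 32 were called heavy and 3 light, with a median of 1.17. Of the 46 in the highest quintile of transcriptome level 30 were heavy. Cenpe, a kinetochore motor, stood at 15.6, 2.26 and 7.48 CPM on the light side and at 144, 82.5 and 132 CPM on the heavy side (3.92 ± 0.39; limma adjusted p = 0.000421). The 2 most abundant members were not called. Pttg1, securin, stood at 3386, 2999 and 2766 CPM against 3897, 4098 and 3187 CPM (0.29 ± 0.18), and Plk1, the Polo kinase, at 1375, 1935 and 1372 CPM against 1227, 1236 and 767 CPM (-0.55 ± 0.20).

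DNA replication is completed in both pronuclei before the first division. Of 57 replication genes 25 were heavy and 3 light, with a median of 0.88. Of the 21 in the highest quintile of transcriptome level 16 were heavy. Orc4, a subunit of the origin recognition complex, stood at 8.66, 3.78 and 2.89 CPM against 93.0, 23 and 45.9 CPM (3.07 ± 0.45). Tipin, of the fork protection complex, stood at 19.9, 3.89 and 5.38 CPM against 61.2, 63.6 and 73.1 CPM (2.95 ± 0.49). Mcm5, of the replicative helicase, and Cdt1, its loader, were the 2 most abundant in the fractions and were not called (-0.72 ± 0.27 and 0.22 ± 0.23).

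Among 35 genes of pronuclear reprogramming and DNA methylation 13 were heavy and 1 light, with a median of 0.92. Of the 18 in the highest quintile of transcriptome level 8 were heavy, a share near that of all genes there. The Polycomb subunits Ezh2 (2.40 ± 0.25) and Eed (2.33 ± 0.37) and the histone chaperone Asf1a (2.49 ± 0.37) were heavy. Zfp57, which guards imprinted methylation, stood at 1733, 1425 and 1176 CPM against 1012, 698 and 835 CPM (-0.77 ± 0.19) and was under the size threshold.

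The regulators of genome activation included the Obox family, homeobox genes stored in the egg. Of 33 tested, 9 were heavy and 0 light, with a median of 0.58, and of the 14 in the highest quintile 8 were heavy. Obox5 stood at 96.2, 23.3 and 63.6 CPM on the light side and at 1453, 1444 and 2221 CPM on the heavy side, and went from a mean of 129.8 CPM in fraction 5 to 2823 CPM in fraction 9. Obox1 stood at 101, 35.2 and 48.5 CPM against 990, 978 and 1434 CPM (4.30 ± 0.31), and Obox2 at 131, 53.2 and 63.5 CPM against 988, 661 and 1159 CPM (3.56 ± 0.26). Obox7 had a difference of 2.73 ± 0.37. The Obox copies are alike in sequence, so reads could be split among them. Klf17, a Kruppel-like factor and 1 of the 2 most abundant members, was not called (0.55 ± 0.27). Of 39 early zygotic and 2-cell genes 6 were measurable, with 0 called in either direction by limma.

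Among 49 tested genes of mRNA storage and decay 17 were heavy and 0 light, with a median of 0.92, and of the 24 in the highest quintile 14 were heavy. Cnot2, a scaffold subunit of the deadenylase, stood at 15.3, 10.7 and 18.1 CPM against 60.2, 82.3 and 99.2 CPM (2.38 ± 0.34). Igf2bp3 and Ythdf3, which bind mRNA, had differences of 2.32 ± 0.39 and 2.27 ± 0.39. Zar1, which binds and stores maternal mRNA in the egg, was at the same level on both sides within the spread of its gradients, with 3250, 3581 and 3876 CPM against 3227, 3695 and 2960 CPM (-0.12 ± 0.19; limma adjusted p = 0.705).

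Of 57 splicing factor genes 16 were heavy and 0 light (median 0.46), with 14 of 26 heavy in the highest quintile, led by Sf3b1, of the U2 particle, at 17.1, 14.8 and 20.1 CPM against 372, 180 and 565 CPM (4.21 ± 0.30). Of 51 ubiquitin ligase and deubiquitinase genes 21 were heavy and 3 light (median 0.62). In the highest quintile 17 of 38 were heavy, a share near that of all genes there. Cul1, the cullin of SCF ligases, stood at 37.9, 23.3 and 22.8 CPM against 515, 356 and 730 CPM (4.18 ± 0.28). Fbxo43, the Emi2 protein that keeps the egg arrested in metaphase II, stood at 19.7, 16.9 and 23.5 CPM against 314, 180 and 243 CPM (3.53 ± 0.26). Ubb, which encodes polyubiquitin, went the other way, with 6509, 7722 and 5931 CPM against 2595, 3027 and 1445 CPM (-1.57 ± 0.21), and its mean in fraction 2 was 15825 CPM. Of 32 heat shock and chaperonin genes 10 were heavy and 1 light (median 0.65), and in the highest quintile 8 of 20 were heavy, a share no higher than that of all genes there. The 2 most abundant were on opposite sides. Hsp90aa1, the inducible cytosolic Hsp90, stood at 407, 321 and 444 CPM against 1154, 852 and 1506 CPM (1.56 ± 0.18). Dnajb1, an Hsp70 co-chaperone, stood at 675, 832 and 587 CPM against 258, 325 and 222 CPM (-1.38 ± 0.18).

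Factors of protein synthesis and turnover had calls in both directions. Of 52 initiation and elongation factor genes 9 were heavy and 4 light (median 0.09), with 9 of 22 heavy in the highest quintile. Eif4g2, which supports cap-independent initiation, stood at 32.2, 21.2 and 25.9 CPM against 348, 224 and 407 CPM (3.55 ± 0.25). Eif5b (3.07 ± 0.38) and Eif4e3 (3.04 ± 0.29) were also heavy, and Eif3g was light. Eif6, which keeps ribosomal subunits apart, was 1 of the 2 most abundant, at 3728, 2614 and 3798 CPM against 3100, 2195 and 3309 CPM and was not called (-0.24 ± 0.18). Of 37 proteasome genes 5 were heavy and 1 light (median 0.08), with 3 of 20 heavy in the highest quintile: Psme4, an activator, at 3.41 ± 0.48, and Psmd8, a lid subunit, at -1.52 ± 0.22, were at the ends. Of 22 aminoacyl-tRNA synthetase genes 5 were heavy and 2 light (median 0.12), with 3 of 4 heavy in the highest quintile. The medians changed sign under 5 alternatives for initiation and elongation factors, 3 for the proteasome and 6 for the synthetases. Of 35 genes of the endoplasmic reticulum pathway 5 were heavy and 5 light (median 0.48), with 5 of 18 heavy in the highest quintile.

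Ribosomal protein mRNAs, short transcripts that start with a run of pyrimidines and whose translation is regulated as a group, peaked in fraction 1. Of 74 tested, 0 were called heavy and 12 light, with a median of -0.49 and medians of -0.51, -0.62 and -0.57 in gradients A, B and C. In the highest quintile 0 of 7 were heavy and 1 light. For 56 of them the highest fraction was fraction 1, where the list median was 1.79 above the genes' own means. It was 0.21 in fraction 2 and -0.57 in fraction 3. Rps12 stood at 40.9, 50.8 and 52.3 CPM on the light side and at 3.85, 6.05 and 9.15 CPM on the heavy side (-2.79 ± 0.41; limma adjusted p = 0.00223). Its mean was 204.2 CPM in fraction 1 and 22.5 CPM in fraction 2, and it was not called without fraction 1. Rps14 stood at 295, 256 and 343 CPM against 111, 71.0 and 119 CPM (-1.58 ± 0.21). Rplp0, of the ribosomal stalk, stood at 1223, 897 and 1127 CPM against 451, 474 and 377 CPM (-1.31 ± 0.20). Many ribosomal protein genes have processed pseudogenes that can take or lend reads.

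Nuclear genes of oxidative phosphorylation also peaked in fraction 1. Of 75 tested, 1 was heavy and 17 light, with a median of -0.61. In the highest quintile, which held 14, 1 was heavy and 2 were light, and over the whole list 55 had their highest level in fraction 1. Atp5g1, a gene of the membrane ring of ATP synthase, stood at 1630, 1781 and 1980 CPM against 331, 233 and 381 CPM (-2.53 ± 0.20; limma adjusted p = 0.000207). Its mean was 7671 CPM in fraction 1, 134.1 CPM in fraction 3 and 460.4 CPM in fraction 10. Atp5e, of the same enzyme (-2.42 ± 0.26), Uqcrq, of complex III (-2.03 ± 0.20), and Ndufa3, of complex I (-2.70 ± 0.35), were also light. Among 75 mitochondrial ribosomal protein genes 1 was heavy and 7 light (median -0.47), with 0 of 13 called in the highest quintile.

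The light position of both lists rested on fraction 1. With fractions 2 to 5 against 6 to 10 the median of ribosomal protein genes was 0.07, with 4 genes heavy and 1 light, and that of oxidative phosphorylation genes 0.28, with 5 heavy and 2 light, against 0.07 over all genes. Mitochondrial ribosomal protein genes kept a median of -0.24. Fraction 1 was also the shallowest, at 4.32 to 8.95 M reads. Of the 591 light genes 582 could be tested without it, 395 of these were still called light and 55 had the other sign. Of the 1507 heavy genes 1459 were still called.

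Noncoding RNAs of small particles were also high in fraction 1. As with 18S rRNA, their CPM is relative to the captured RNA of each library. It does not by itself show where the particles lay. Rn7s1, 7SL RNA of the signal recognition particle, stood at 780.3, 588.7 and 517.6 CPM in fraction 1 of gradients A, B and C. Its mean was 1.7 CPM in fraction 4 and 67.6 CPM in fraction 10, so that it was high at both ends. Its side difference was -2.45 ± 0.31 (limma adjusted p = 0.00111), and 2.23 without fraction 1. Its near-identical copy Rn7s2 had -2.48 ± 0.30. Rn7sk, the 7SK RNA that holds elongation factor P-TEFb, had a mean of 1163 CPM in fraction 1, 15.3 CPM in fraction 4 and 227.6 CPM in fraction 10. Its call (-1.41 ± 0.31) was lost without gradient B and its difference was 1.41 without fraction 1. Of 14 noncoding RNAs tested 1 was heavy, 18S rRNA, and 3 light.

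**Figure D4:**
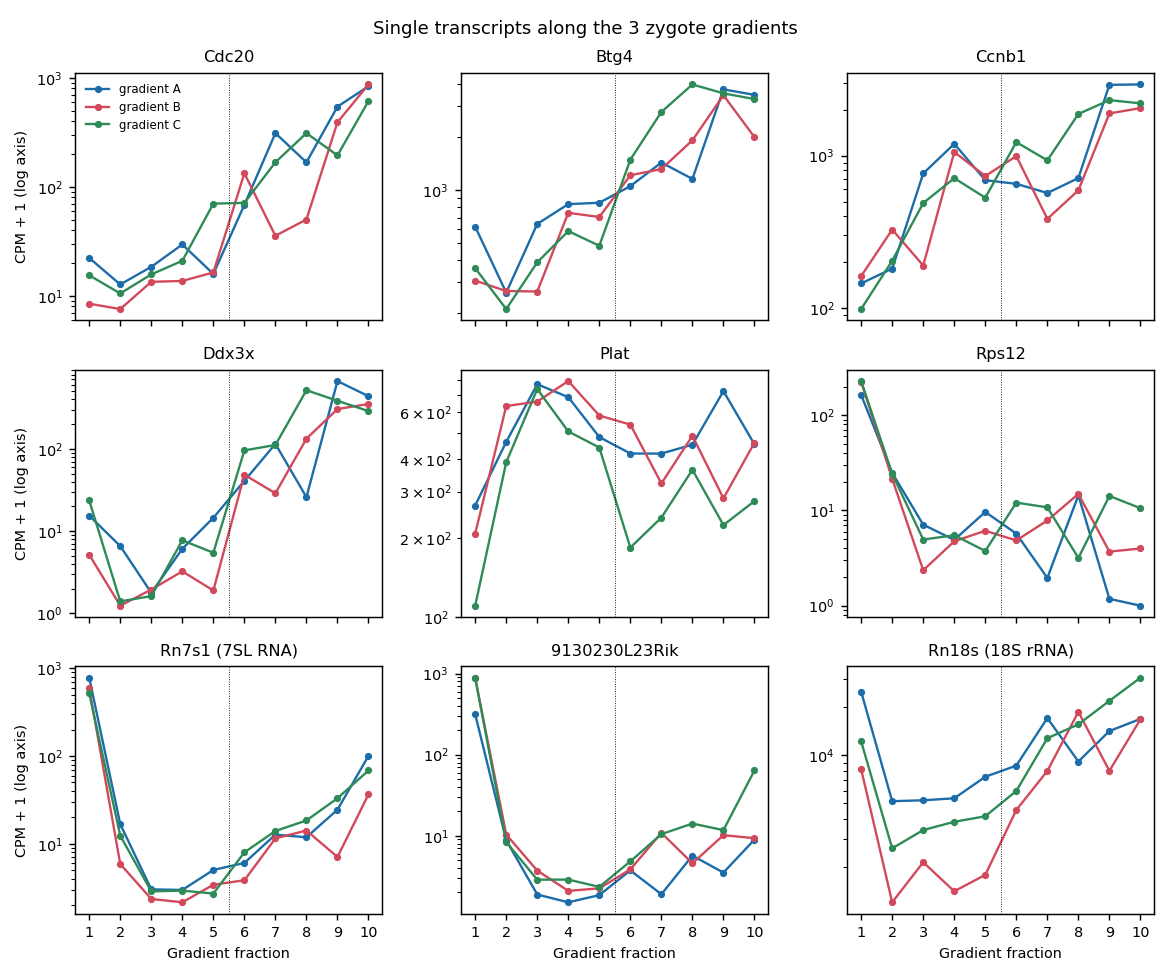
Points give CPM + 1 on a log axis in fractions 1 to 10 of gradients A, B and C. Shown are heavy genes (Cdc20, Btg4, Ccnb1, Ddx3x), the uncalled Plat, light transcripts high in fraction 1 (Rps12, Rn7s1 and 9130230L23Rik), and Rn18s. Rn18s was called heavy and was high in fractions 1 and 10. The mean of Cdc20 went from 9.29 CPM in fraction 2 to 772.5 CPM in fraction 10, and that of Rn7s1 from 628.9 CPM in fraction 1 to 1.7 CPM in fraction 4 and 67.6 CPM in fraction 10.

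Position was described against coding length. Of the genes tested 91.8% had a coding length in the annotation. The median difference was -0.33 for the 210 genes with up to 300 coding nucleotides, -0.14 for the 2858 genes above 900 and up to 1500, and 0.40 for the 1526 genes above 3000. The share called heavy went from 6.19% in the shortest bin to 22.3% in the longest, and the share called light from 13.3% to 2.16%. The longest bin had medians of 0.38, 0.35 and 0.71 in gradients A, B and C. Across 10390 genes Spearman's correlation of coding length and difference was 0.19, a description across genes that share the same 30 libraries. Median coding length was 1782 nucleotides for heavy genes and 1125 for light genes, 448.5 for the ribosomal protein list and 430.5 for the oxidative phosphorylation list.

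The same position was compared with that in the MII oocyte, the cell before fertilisation, and in the 2-cell embryo. Against MII 0 of 12334 genes (0.0%) were called by limma and 1294 had an unadjusted p under 0.05. Against the 2-cell embryo 0 of 12633 (0.0%) were called by limma and 1838 had an unadjusted p under 0.05. When all 8 stages shared 1 fit, limma called 3 and 834. Plat had differences of 1.67, 2.86 and 2.41 in MII, and its zygote values were -0.11, -0.46 and -0.77 (zygote minus MII -2.76; limma adjusted p = 0.203). Mos had 1.40, 1.83 and 0.71 in MII and -0.59, 0.20 and -0.35 in zygotes (-1.56; limma adjusted p = 0.376). Neither difference passed the threshold. Plat, Mos, Cdc20, Dcp1a and Ccnb1 are examples from the 20 members of the maturation-activated list, not chosen by a rule. None was called in the main comparison of stages. Of the 20 members, 5 had an unadjusted limma p under 0.05 against MII and 4 against the 2-cell embryo. Over the 11323 genes tested in the zygote comparison these counts were 1204 and 1558. Cdc20 had 0.94, 2.96 and 1.15 in MII and 4.28, 4.63 and 3.35 in zygotes (2.41; limma adjusted p = 0.339). Dcp1a had -1.01, -1.11 and -0.73 in 2-cell embryos and 1.86, 1.23 and 2.18 in zygotes (2.70; limma adjusted p = 0.143). Ccnb1 had mean differences of 1.57 in zygotes, 1.76 in MII oocytes and 1.68 in 2-cell embryos. The median of the maturation-activated list was 1.54 in MII and 1.35 in 2-cell embryos.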

How the data were processed

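RNA of sucrose gradient fractions and of whole embryos was sequenced. The authors deposited CPM values (reads scaled to the library total) for 15854 gene symbols. Per the submitters' processing notes, the tools were Trim Galore 0.6.7, FastQC, HISAT2 2.2.1, featureCounts 2.0.1 and edgeR, with build GRCm39; their settings are not given in the sources used here. In 9 columns of other stages, deposited as the same scaled signal, repeated symbols inflate the sum. Of these, 1 is a 2-cell fraction. Symbols with identical values were counted once, leaving 15771. Side means of zygote fractions were tested with limma 3.58.1 (R 4.3.3; trend; pseudocount 1; 1 CPM or more in 3 of 6 side means), with the gradient letter as a block, because both sides come from the same gradient (correlation of their deviations 0.060, 0.118 and 0.061 for the same letter, -0.086 to 0.023 for others). edgeR 4.0.16 was run on recovered reads. The limma and edgeR fits were tested on simulated data. The smallest chi-square per degree of freedom between replicate libraries was 67.0, so no pair agreed within sampling noise. Named genes were the 12 largest calls in each direction with at least 10 CPM on the higher side of each gradient, and from each list up to 4 largest calls and the 2 most abundant members. Members, lists and tests were chosen with earlier results of these data known. Coding length and transcript ends came from GENCODE M21 by symbol (coding length in place of a protein table, not used here), and no coordinates were used.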

Additional observations from a re-analysis of the deposited data

Results flagged for a closer look

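For 3 gene lists the median position lay on one side in all 3 zygote gradients and on the other in all 3 gradients of a neighbouring stage. Every list with tested genes was set against both the MII oocyte and the 2-cell embryo, and no other list met this rule. None of these differences between stages was tested over the list. Ribosomal protein genes had medians of -0.51, -0.62 and -0.57 in zygote gradients A, B and C and of 0.65, 0.54 and 0.02 in 2-cell gradients, so the zygote mean was lower by a difference of -0.97. Of their 74 genes 15 had an unadjusted limma p under 0.05 for that difference, against 1558 of 11323 genes tested. With fractions 2 to 5 against 6 to 10 the zygote median of ribosomal protein genes was 0.07, so their light position rested on fraction 1. Genes of the endoplasmic reticulum pathway had medians of 0.47, 0.36 and 0.35 in zygotes and of -0.33, -0.07 and -0.03 in 2-cell embryos, a difference of 0.54. Of the 35 genes 5 had an unadjusted limma p under 0.05, a share near that of all genes. Genes of oocyte growth and egg coat had -0.08, -0.25 and -0.31 in zygotes and 0.36, 0.24 and 0.63 in MII oocytes, a difference of -0.62. Of the 18 genes 4 had an unadjusted limma p under 0.05, against 1204 of 11323 genes tested. The median of all genes was -0.05 in zygotes, -0.08 in MII oocytes and -0.34 in 2-cell embryos.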

How the results depend on the processing

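The number of genes called heavy or light, 2098, was 1121 without the filter on low values, 615 with all 8 stages in 1 fit and 1271 without the trend in limma. Leaving out 1 gradient gave 1424 to 1876. The other alternatives kept it within 1.5 times. Without the replicate block 2092 were called, 1975 of them the same genes. Against MII and against the 2-cell embryo 0 genes were called under every alternative, gradients left out included, except in the fit of all 8 stages (3 and 834), and with the letter as a replicate block 0 were called in both, with 1306 and 1516 at an unadjusted limma p under 0.05. The alternatives that left out fractions 7 and 8 of gradient A, or genes with a 0 in a heavy fraction (1681 called), were chosen after seeing the data.

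Of 103 named genes called, 41 were called under every alternative run. Differences changed sign for 11 of the light ones. With the median CPM per side they were 1.45 for 9130230L23Rik, 0.31 for Ndufa3, 0.23 for Rps14, 0.50 for Atp5g1, 0.70 for Atp5e, 0.40 for Uqcrq, 0.095 for Mrpl54, 0.70 for Mrpl23, 1.93 for Rn7s2, 1.92 for Rn7s1 and 1.99 for Rn7sk. With fractions 2 to 5 against 6 to 10 they were 1.18 for 9130230L23Rik, 0.78 for Ndufa3, 0.21 for Rps14, 0.79 for Atp5e, 0.29 for Uqcrq, 0.32 for Mrpl23, 2.37 for Rn7s2, 2.23 for Rn7s1 and 1.41 for Rn7sk. With the mean of log2 values they were 0.63 for Rn7s2, 0.56 for Rn7s1 and 0.49 for Rn7sk. Cox8a, at -0.83 and not called in the zygote comparison, was called heavy in the first of these settings (1.04) and the second (1.04). All of these have their highest level in fraction 1, and leaving it out removes that level by construction. Of 440 list medians under alternatives 370 stayed within 1 SD of the gradients and 21 had the other sign, in 7 lists. Depth limits fraction 1 most, and 3 gradients limit the precision of every difference.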

Other observations

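Genes under 1 CPM in the transcriptome made up 14.6% of those called light, 0.597% of those called heavy, 17.96% of those not called and 15.5% of all tested. Of the marker lists, 2 genes were singled out after their values were seen. Prm2, a protamine of the sperm head, stood at a mean of 51.3 CPM on the light side and 18.2 CPM on the heavy side of the zygote gradients (-1.45; limma adjusted p = 0.016). Cyp19a1, the aromatase of granulosa cells, stood at 5.49 CPM on the light side and 26.7 CPM on the heavy side (1.97; limma adjusted p = 0.026), and at 53.8 CPM in the transcriptome.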
